A study of Mus musculus and Homo sapiens with 15 samples.

Results

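U937 cells expressing the p53 mutant R282W were compared after treatment with arsenic trioxide (ATO) and after phosphate-buffered saline (PBS). U937 is an established human line with the features of an immature monocyte. R282W replaces an arginine of the DNA-binding domain of p53, the tumour suppressor that turns on genes for cell cycle arrest and cell death, by a tryptophan. ATO is used against acute promyelocytic leukaemia and binds sulfhydryl groups of proteins. The 2 samples were taken by their labels from a series of 15 samples, whose other members are mouse thymus and mouse tumour. Each treatment gave 1 library, and both libraries carried the same p53 mutation. There was no U937 sample without the mutant, so nothing below separates a response of the mutant from a response of the cell line. The dose, the length of treatment, the clone and the way the mutant was introduced are not given in the sources used here.

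Arsenic reaches several sensor systems in a cell. Free zinc and arsenic release the transcription factor MTF1 to switch on metallothioneins, small cysteine-rich proteins that bind metals. Oxidation of KEAP1 frees NRF2, the activator of glutathione and haem-breakdown genes. Unfolded proteins free the heat shock factor HSF1, and kinases that sense stress phosphorylate eIF2alpha, which favours translation of ATF4, an activator of amino acid and stress genes.

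The libraries held 17872972 counts after PBS and 16454534 after ATO. Levels are given in CPM, the count divided by the library's own total and scaled to 1000000, which compare a gene between the libraries but not 1 gene with another. With 1 library a side there is no replicate check, and no p-value is given. Each ratio carries a 95% interval that covers counting error only and says nothing about how separate cultures would differ. That interval excluded equal levels for 78.3% of the measured genes. A gene was measured where its mean level was at least 1 CPM. Where a pair of levels stands in brackets, PBS comes first and ATO second. A gene is said to have risen or fallen where the ratio was at least 2-fold. Of 13722 measured genes, 2625 rose (19.1%) and 1396 fell (10.2%), and the median log2 ratio was 0.14. These shares are the background against which counts in gene lists are to be read. In an RNA library, fewer cells of a type and less RNA per cell cannot be told apart.

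The rises lay mostly among genes of low level. Of the 1446 genes with a mean of 1 to 2 CPM, 44.6% rose and 8.58% fell. Among the 2524 genes at 100 CPM or more, 8.44% rose and 9.75% fell. At least 1 count was found for 25793 genes after ATO and 22574 after PBS, although the ATO library was the smaller. There were 396 genes with at least 10 counts after ATO and 0 after PBS, against 19 the other way round. Long non-coding RNAs rose more often (557 of 1487) than protein-coding genes (1885 of 11427), and mitochondrial genes held 4.81% of counts after PBS and 4.25% after ATO. Mitochondrial ribosomal RNA went the other way, from 0.395% to 0.740%. The part of library composition in the rises at low level was not tested. A scaling by the trimmed mean of M values (TMM) lowers every log2 ratio by 0.21. Under it 2066 genes rose and 1960 fell, so rises made up 51.3% of the changed genes rather than 65.3%. The plot of ratio against level shows the spread of the rises at low level.

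**Figure D1:**
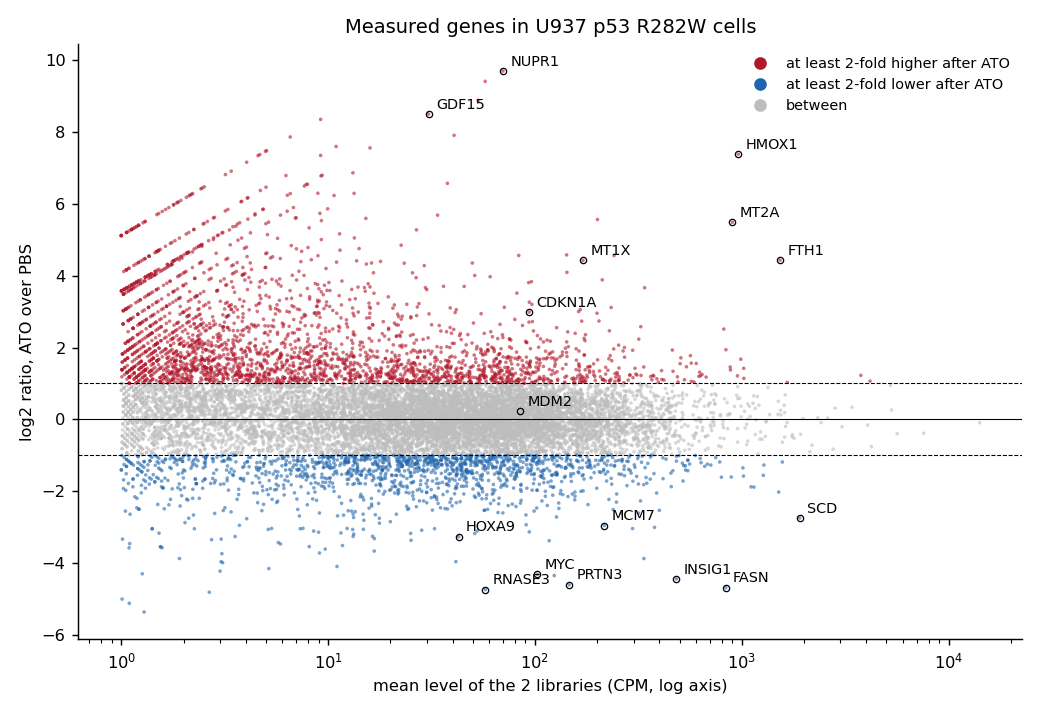
Each point is 1 of 13722 measured genes, with the mean of its 2 levels in CPM on the horizontal log axis and the log2 ratio of ATO over PBS on the vertical axis; dashed lines mark 2-fold. HMOX1 stands highest among the abundant genes, FASN and INSIG1 lowest, and most rises lie at low levels, where a gene with 0 counts is drawn at the bound set by 3 counts.

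Of 15 markers listed for U937, 14 reached 1 CPM in both libraries, and the exception was MPO, myeloperoxidase, with 7 and 14 counts. Their summed level was 4848 CPM after PBS and 1893 CPM after ATO. LYZ (1744 and 473 CPM) and the integrin chain ITGB2 (1201 and 392 CPM) had the highest levels in that sum, and both fell. The sum therefore follows the most abundant markers, and not every marker fell. FCER1G (38.7 and 151.5 CPM) and TYROBP (10.6 and 32.7 CPM) rose. CD33 (40.9 and 45.9 CPM), CSF3R (180 and 194 CPM) and CD68 (1.4 and 2.25 CPM) were higher without reaching 2-fold. The 5 genes with most reads were MT-CO1, MT-ND4, ACTB, MT-CO3, EEF1A1 after PBS and MT-CO1, MT-RNR2, MT-ND4, EEF1A1, FTL after ATO.

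The largest rise was that of NUPR1, a small stress-induced chromatin protein, which had 0 counts after PBS and 2305 counts after ATO (0 CPM after PBS and 140.1 CPM after ATO) and was at least 835-fold higher against a floor of 3 counts. HTRA3, a secreted serine protease, had 0.168 CPM after PBS and 115 CPM after ATO, 684-fold (interval 234 to 3318). GDF15, a stress cytokine of the TGF-beta family, had 0.168 CPM after PBS and 61 CPM after ATO, 364-fold (interval 124 to 1766). In these genes the PBS library held 4 counts or fewer, as it did for SLC26A11, an anion transporter (0.224 and 106 CPM), NMRAL2P, a transcribed pseudogene (0.0560 and 18.4 CPM), SLAMF7 (0.0560 and 13.1 CPM), SLC12A8 (0.112 and 21.8 CPM), ESRP1, a splicing factor of epithelial cells (0.168 and 31.7 CPM), KLHDC7B (0.0560 and 10 CPM), COL6A3, a collagen chain (0.112 and 18.3 CPM), CREB3L3 (0.224 and 26.1 CPM), TNFRSF8, the receptor CD30 (0.112 and 12.4 CPM), and CCL18, a macrophage chemokine (0 and 18.5 CPM). ANKRD34C had 6 counts after PBS and 1332 counts after ATO. On the strand opposite SLC26A11, SGSH also went from 0 to 58 counts, and whether counting used strand is not stated. The size of such ratios is set by a handful of counts, and their intervals are wide: that of KLHDC7B ran from 31.7 to 7121.

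HMOX1, haem oxygenase 1, was the exception among the 15 largest rises in having a firm starting level, with 204 counts after PBS and 31427 counts after ATO. It rose from 11.4 to 1909.9 CPM, 167-fold (interval 146 to 193), on chromosome 22 at 35380361 to 35394214.

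The 15 largest falls were smaller than the largest rises. RNASE3, the eosinophil cationic protein, had 111 CPM after PBS and 4.13 CPM after ATO, 26.8-fold (interval 21.1 to 34.7) lower. FASN, fatty acid synthase, fell from 1610.1 to 62.2 CPM, 25.9-fold (interval 24.3 to 27.6), and PRTN3, the granule protease proteinase 3, from 281 to 11.5 CPM, 24.5-fold (interval 21.2 to 28.4). Other lipid genes were INSIG1, which holds SREBP in the endoplasmic reticulum (923 and 42.2 CPM), DHCR7, the last step to cholesterol (236 and 11.5 CPM), and FADS2, a fatty acid desaturase (630.0 and 42.8 CPM). MYC fell from 195 to 9.78 CPM, 20-fold (interval 17 to 23.5). The remaining ones were TRIM71 (20.9 and 1.22 CPM), the phosphatase CTDSP1 (77.9 and 4.98 CPM), EGFL7 (16.9 and 1.28 CPM), FERMT1 (31 and 2.43 CPM), B4GALT2 (17.9 and 1.46 CPM), THBS4 (14.9 and 1.28 CPM), the non-coding RNA CCDC26 (21.6 and 1.88 CPM) and TERT, the catalytic subunit of telomerase (10.8 and 0.972 CPM). FADS2 overlaps FADS1 on the opposite strand and FEN1 on its own, both of which also had fewer counts after ATO, and an antisense transcript of DHCR7 went from 175 to 9 counts, so reads of these pairs may be shared.

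The gene lists described next follow the stress sensors, then p53, lipid synthesis, growth and division, myeloid identity and inflammation. Where a list holds many genes, the members named beyond the 3 largest ratios in each direction are given for their role in the pathway, and they were chosen after their values were seen. The plot of lists shows the members of each list around its median.

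**Figure D2:**
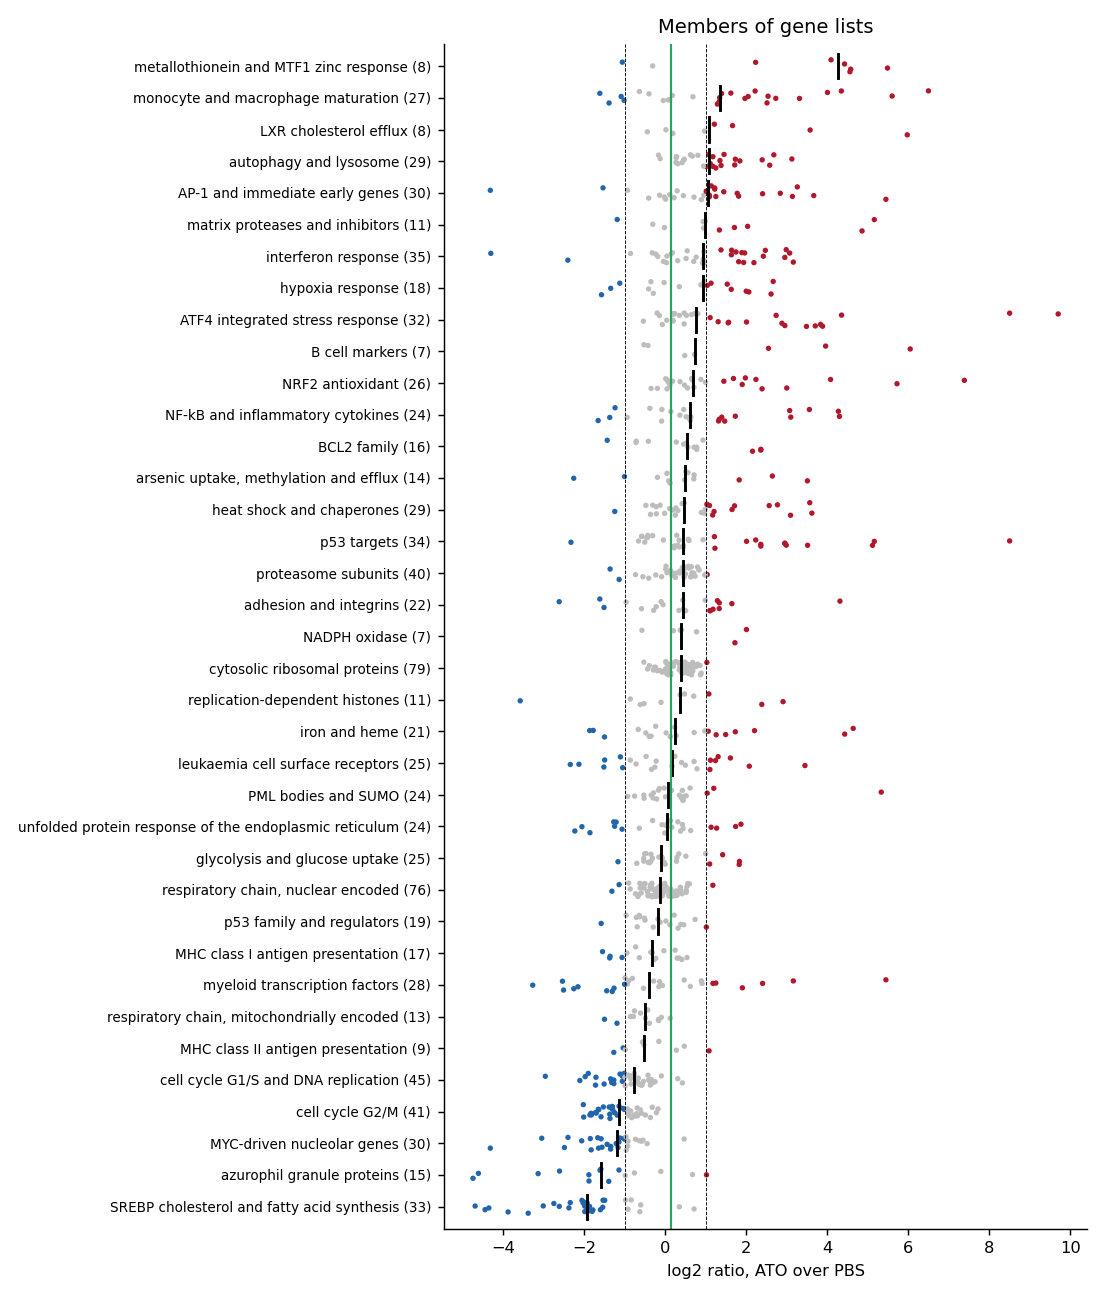
Rows are the gene lists with at least 7 measured members (number in brackets), sorted by median; each point is 1 measured member's log2 ratio of ATO over PBS, coloured where past 2-fold (dashed lines), the black bar is the list's median and the green line the median of all measured genes (0.14). Metallothionein genes lie farthest to the right and sterol and fatty acid synthesis genes farthest to the left.

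The measured metallothionein genes rose. Of 8 measured members of the metal list, 6 rose and 1 fell, with a median log2 ratio of 4.26. MT2A, the main human isoform, went from 39.2 to 1762 CPM, 44.9-fold (interval 41.7 to 48.5). MT1X went from 15.2 to 326 CPM, 21.5-fold (interval 19.1 to 24.4). The other measured isoforms moved over a similar range, MT1F (11.4 and 273 CPM), MT1E (19.6 and 463 CPM) and MT1G (15.8 and 269.7 CPM). These isoforms are near-identical paralogues, and how the counting divided reads between them is not stated, so the order among them is uncertain. SLC30A1, the zinc exporter of the plasma membrane, rose from 111 to 524 CPM, 4.7-fold (interval 4.48 to 4.94). The importer SLC39A10 moved the other way, with 84.3 CPM after PBS and 40.5 CPM after ATO, 2.08-fold (interval 1.9 to 2.29) lower. MTF1, the sensor itself, had 45 CPM after PBS and 36.3 CPM after ATO, short of 2-fold.

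MTF1 binds metal response elements, whose core was searched here as TGCGCNC or TGCACNC, on both strands, in the 250 bases before the start of the canonical transcript. That short motif is common: 4021 of 11414 (35.2%) promoters of measured protein-coding genes held at least 1. At least 3 non-overlapping runs of it were found in 204 of 11414 promoters of all these genes and in 5 of 8 of the metal list, namely MT2A (7 runs), MT1F (6), MT1G (5), MT1X (4) and MT1E (3). SLC30A1 had 1, and MTF1 and SLC39A10 had none in this window. Over all genes that rose, 30.2% held at least 1 match, and over all that fell 37.0%. At least 3 runs were held by 1.38% of all that rose and 2.39% of all that fell. The promoters of MT2A and MT1X are printed 5′ to 3′ because they show how the repeated element is laid out ahead of genes that rose. They are read from GRCh38 and end at the base before the start, with the matches in capitals. MT2A lies at chr16:56608334-56608583, plus strand, and MT1X at chr16:56682220-56682469, plus strand.
MT2A: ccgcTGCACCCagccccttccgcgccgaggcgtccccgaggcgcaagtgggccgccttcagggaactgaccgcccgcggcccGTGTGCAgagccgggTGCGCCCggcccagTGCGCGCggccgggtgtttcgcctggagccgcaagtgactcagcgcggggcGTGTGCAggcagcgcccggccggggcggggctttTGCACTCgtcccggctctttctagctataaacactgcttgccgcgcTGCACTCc
MT1X: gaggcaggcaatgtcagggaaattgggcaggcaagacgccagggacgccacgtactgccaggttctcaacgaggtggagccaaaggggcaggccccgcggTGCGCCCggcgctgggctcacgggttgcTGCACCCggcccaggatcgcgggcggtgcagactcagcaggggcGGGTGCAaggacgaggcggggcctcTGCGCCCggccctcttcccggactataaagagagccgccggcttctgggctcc
In MT1X the 4 matches begin 150, 122, 78 and 53 bases before the start. A match is a description of these letters and not a shown binding site.

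Genes of the NRF2 list rose or stayed within 2-fold. Of 26 measured members, 10 rose and 0 fell, and the median log2 ratio was 0.69. Beside HMOX1, AKR1C3, an aldo-keto reductase, went from 0 counts to 8.87 CPM, at least 52.9-fold higher, and OSGIN1, an oxidative stress growth inhibitor, had 1.85 CPM after PBS and 31.3 CPM after ATO, 17-fold (interval 11.9 to 24.9). Glutathione supply was represented by SLC7A11, the cystine importer (36.1 and 289 CPM), its partner chain SLC3A2 (118 and 322 CPM), and GCLM, the modifier subunit of glutamate-cysteine ligase (68.9 and 258 CPM). The catalytic subunit GCLC (85.2 and 135 CPM) stayed under 2-fold. NQO1, a quinone reductase (31.2 and 123 CPM), SRXN1, sulfiredoxin (2.97 and 15.6 CPM), EPHX1, epoxide hydrolase (37.2 and 176 CPM), and MAFG, a partner of NRF2 (108 and 348 CPM), also rose. The pentose phosphate enzymes PGD (509 and 799.8 CPM) and TKT (821 and 889 CPM) did not reach 2-fold, and PRDX1, a peroxiredoxin, was lower (411 and 323 CPM, 1.27-fold, interval 1.23 to 1.32). NFE2L2, which encodes NRF2, had 97.7 CPM after PBS and 143 CPM after ATO.

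Iron storage genes rose. FTH1, ferritin heavy chain, had 136 CPM after PBS and 2928 CPM after ATO, 21.6-fold (interval 20.7 to 22.5) higher, and FTL, ferritin light chain, had 2699 CPM after PBS and 5638 CPM after ATO, 2.09-fold (interval 2.07 to 2.11), which fell under 2-fold with TMM scaling. Reads of FTH1 may be shared with its processed pseudogenes: 25 of them together had 48 counts after PBS and 669 after ATO. Of 21 measured iron and haem genes, 7 rose and 3 fell. SLC48A1, a haem transporter (27.2 and 126 CPM), ALAS1, the first enzyme of haem synthesis (126 and 417 CPM), BLVRB, biliverdin reductase B (28 and 78.9 CPM), and TFRC, the transferrin receptor (181 and 434 CPM), rose. FLVCR1, a haem exporter, fell from 82.3 to 24 CPM, 3.43-fold (interval 3.07 to 3.84). At the level of messenger RNA, both ferritin genes and TFRC were thus higher, and the part of iron in this was not tested.

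Part of the heat shock list rose. Of 29 measured members, 11 rose and 1 fell, with a median log2 ratio of 0.47. With TMM scaling 6 rose and the median was 0.23. HSPA6, a strictly inducible HSP70, went from 2.35 to 27.9 CPM, 11.9-fold (interval 8.64 to 16.7). HSPA1A had 3.36 CPM after PBS and 28.7 CPM after ATO, 8.54-fold (interval 6.52 to 11.4), and its near-identical neighbour HSPA1B had 30.7 CPM after PBS and 96.3 CPM after ATO, so the division between this pair is uncertain. BAG3, an HSP70 co-chaperone, had 3.13 CPM after PBS and 21.4 CPM after ATO, 6.83-fold (interval 5.14 to 9.22). The abundant constitutive chaperones HSPA8 (1508 and 1716 CPM) and HSP90AB1 (2518 and 3129 CPM) stayed within 2-fold, as did HSP90AA1 (1407 and 1672 CPM) and the mitochondrial HSPD1 (1511 and 1086 CPM). HSPA4L fell (47.6 and 20.1 CPM, 2.37-fold, interval 2.09 to 2.7). HSF1 had 115 CPM after PBS and 89 CPM after ATO. The promoter of HSPA6 is printed because it holds the 3-part heat shock element, searched on both strands as 3 alternating GAA and TTC triplets with 2 free bases between neighbours, starting with either triplet, and found in 35 of 11414 (0.307%) promoters of measured protein-coding genes and in 8 of 29 (27.6%) of this list. It lies at chr1:161524290-161524539, plus strand of GRCh38, with the match in capitals.
HSPA6: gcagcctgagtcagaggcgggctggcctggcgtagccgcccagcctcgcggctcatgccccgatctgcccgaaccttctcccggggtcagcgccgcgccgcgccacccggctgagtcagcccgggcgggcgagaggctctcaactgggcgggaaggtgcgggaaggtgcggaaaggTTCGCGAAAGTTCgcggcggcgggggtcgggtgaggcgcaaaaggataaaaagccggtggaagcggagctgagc
Among the other list members with a match, HSPH1 (255 and 473 CPM) stayed under 2-fold, and so did HSPA8, HSP90AA1 and HSPD1. DNAJB6, CRYAB and CHORDC1 also held a match. The risers HSPA1A, HSPA1B and BAG3 held none in this window.

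**Figure D3:**
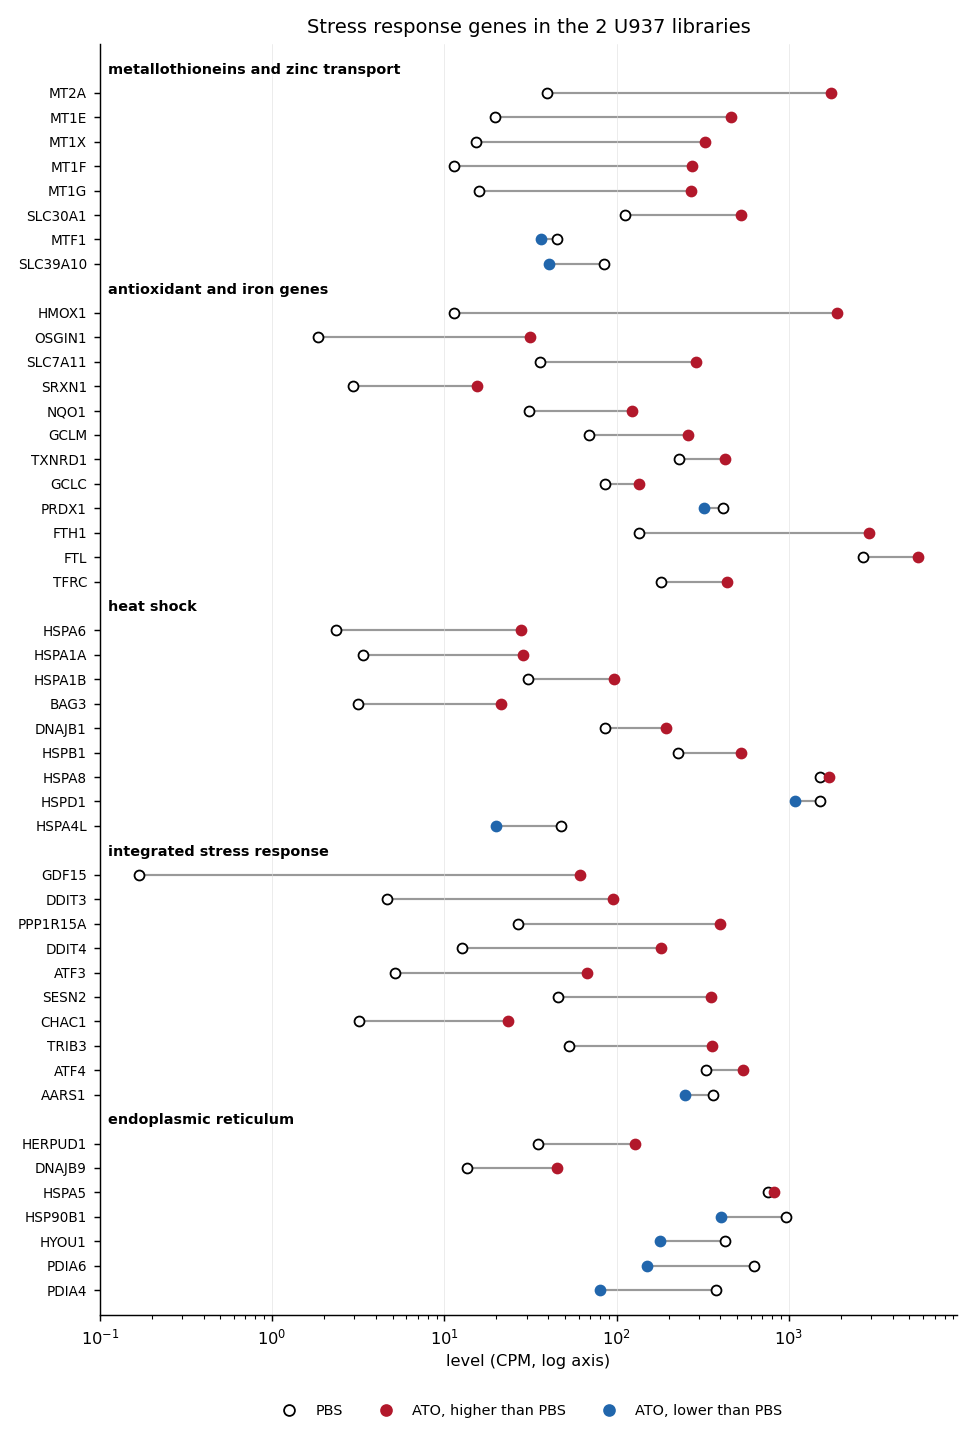
Open circles give the level after PBS and filled circles the level after ATO (CPM, log axis, 1 library each) for named members of 5 stress gene groups, red where ATO was higher and blue where it was lower. HMOX1 went from 11.4 to 1909.9 CPM, and within the endoplasmic reticulum group HERPUD1 and DNAJB9 were higher while PDIA4 and PDIA6 were lower.

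The ATF4 list, genes of the integrated stress response, held 32 measured members, of which 15 rose and 0 fell, with a median log2 ratio of 0.76. Its leading members were NUPR1 and GDF15, given above, and DDIT3, the pro-apoptotic factor CHOP, which had 4.64 CPM after PBS and 95 CPM after ATO, 20.5-fold (interval 16.4 to 25.8). The transcription factor ATF3 (5.15 and 67.2 CPM), the phosphatase subunit PPP1R15A, which reverses the eIF2alpha mark (26.8 and 396 CPM), and the mTORC1 inhibitors DDIT4 (12.6 and 179.8 CPM) and SESN2 (45.6 and 354 CPM) rose. So did TRIB3, a pseudokinase that binds AKT (53.2 and 355 CPM), and CHAC1, which degrades glutathione (3.19 and 23.5 CPM). Amino acid genes moved less evenly. CTH, of the transsulfuration pathway (24.6 and 99 CPM), the transporter SLC38A2 (306 and 899 CPM), the serine pathway enzyme PSAT1 (260.0 and 561 CPM), and the tRNA synthetases WARS1 (288 and 851 CPM) and SARS1 (106 and 262 CPM) rose. PHGDH (315 and 453 CPM), SHMT2 (363 and 372 CPM), SLC7A1 (207 and 180.0 CPM) and PCK2 (108 and 98.1 CPM) did not reach 2-fold. AARS1, alanyl-tRNA synthetase, had 362 CPM after PBS and 249 CPM after ATO, 1.45-fold (interval 1.4 to 1.51) lower. ATF4 itself, which is controlled mainly at translation, had 329 CPM after PBS and 542 CPM after ATO.

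ATF4 pairs with C/EBP factors on a composite element, searched on both strands as TGATGNAA. It was found in 145 of 11414 (1.27%) promoters of measured protein-coding genes and in 6 of 32 (18.8%) of this list: NUPR1, CHAC1, ATF3, GARS1, JDP2 and AARS1. Those of CHAC1 and ATF3 are printed because these genes rose and the motif lies at different distances from the start in each. CHAC1 lies at chr15:40953221-40953470, plus strand, and ATF3 at chr1:212608511-212608760, plus strand of GRCh38, with the matches in capitals.
CHAC1: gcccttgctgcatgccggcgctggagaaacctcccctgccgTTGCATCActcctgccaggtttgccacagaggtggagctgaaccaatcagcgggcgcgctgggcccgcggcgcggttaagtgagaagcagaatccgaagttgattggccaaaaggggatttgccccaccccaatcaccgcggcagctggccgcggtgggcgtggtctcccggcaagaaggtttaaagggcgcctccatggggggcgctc
ATF3: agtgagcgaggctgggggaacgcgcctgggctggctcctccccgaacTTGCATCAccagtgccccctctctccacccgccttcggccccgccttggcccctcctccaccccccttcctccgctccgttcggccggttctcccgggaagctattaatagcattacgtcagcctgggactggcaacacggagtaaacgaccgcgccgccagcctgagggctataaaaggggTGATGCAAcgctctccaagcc
The match begins 209 bases before the start in CHAC1, and ATF3 has 2, at 203 and 21. GARS1 (385 and 606 CPM) and JDP2 (64.1 and 73 CPM) hold the letters and stayed under 2-fold, and AARS1 holds them and was lower.

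Genes of the endoplasmic reticulum split within their list. Of 24 measured members 4 rose (16.7%) and 7 fell (29.2%), beside 19.1% and 10.2% of all measured genes. The median was near 0 (0.04, and -0.17 with TMM scaling). HERPUD1, of the degradation machinery, went from 35 to 128 CPM, 3.66-fold (interval 3.34 to 4.0), and DNAJB9 from 13.5 to 45 CPM, 3.34-fold (interval 2.88 to 3.88). ERN1, which encodes the stress sensor IRE1 (54.3 and 131 CPM), and the ubiquitin ligase SYVN1 (46.6 and 102 CPM) rose too. The folding enzymes went down: PDIA4 from 376 to 80 CPM, 4.7-fold (interval 4.43 to 4.99), PDIA6 from 625 to 150.1 CPM, 4.16-fold (interval 3.98 to 4.35), and SDF2L1 from 14.5 to 4.01 CPM, 3.63-fold (interval 2.76 to 4.83). HSP90B1 (961 and 404 CPM), HYOU1 (427 and 177 CPM), MANF (71.6 and 30.9 CPM) and PDIA3 (1013 and 484 CPM) fell. HSPA5, the chaperone BiP, did not move by 2-fold (752 and 823 CPM).

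Genes known as targets of wild-type p53 were examined because the cells carry a mutant. Of 34 measured members, 13 rose and 1 fell, and the median log2 ratio was 0.45. CDKN1A, the cell cycle inhibitor p21, had 21 CPM after PBS and 167 CPM after ATO, 7.94-fold (interval 7.12 to 8.87) higher. TNFRSF10D, a decoy receptor for TRAIL, had 13.1 CPM after PBS and 150.4 CPM after ATO, 11.4-fold (interval 10 to 13.1). GADD45A (3.02 and 23.4 CPM), ZMAT3 (9.06 and 36.5 CPM), TNFRSF10B, a TRAIL receptor (1908 counts after PBS and 4114 counts after ATO), and RPS27L (34.7 and 80.6 CPM) rose. MDM2, the ubiquitin ligase of p53 and one of its most direct targets, had 78.4 CPM after PBS and 91.5 CPM after ATO, a ratio of 1.17 (interval 1.08 to 1.26). CCNG1 (225 and 219 CPM), BAX (38.6 and 52.8 CPM), FAS (16.2 and 11.9 CPM), XPC (60.5 and 48.8 CPM) and DDB2 (50.4 and 33.5 CPM) also stayed within 2-fold. AEN, an apoptosis nuclease, fell from 50 to 9.97 CPM, 5.02-fold (interval 4.24 to 5.96). GDF15 and SESN2, which rose, are on the ATF4 list as well.

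Among 16 measured genes of the BCL2 family, 3 rose (18.8%) and 1 fell (6.25%), near the 19.1% and 10.2% of all measured genes. The risers were BH3-only killers, which neutralise the protective members: BBC3, or PUMA (8.39 and 43.1 CPM, 5.14-fold, interval 4.31 to 6.17), PMAIP1, or NOXA (15.4 and 79.3 CPM, 5.14-fold, interval 4.51 to 5.87), and BMF (40.3 and 179.6 CPM, 4.46-fold, interval 4.11 to 4.84). BCL2, the protective founder of the family, fell from 72.5 to 26.9 CPM, 2.7-fold (interval 2.42 to 3.01). The protective MCL1 (203 and 348 CPM) and BCL2L1 (80.1 and 118 CPM) were higher without reaching 2-fold, and BID (58.2 and 35.3 CPM) and BIK (6.88 and 4.19 CPM) were lower. Regulators of p53 moved little: of 19, 1 rose and 1 fell. ATR, the replication stress kinase, had 62.4 CPM after PBS and 20.8 CPM after ATO, 2.99-fold (interval 2.65 to 3.39) lower, and MDM4, an inhibitor of p53, had 61.5 CPM after PBS and 31.5 CPM after ATO. The single riser, PPP1R13B (8.84 and 17.9 CPM), fell under 2-fold with TMM scaling.

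Most genes of lipid synthesis fell. The SREBP factors, released from the endoplasmic reticulum when sterols are scarce, switch on the enzymes that make cholesterol and unsaturated fatty acids. Of 33 measured members, 0 rose and 26 fell, and the median log2 ratio was -1.93. Along the cholesterol pathway the first steps ACAT2 (213 and 53.8 CPM) and HMGCS1 (72.7 and 25.8 CPM) fell. In the mevalonate branch MVK (39.7 and 9.54 CPM), MVD (88.1 and 23.1 CPM), IDI1 (267 and 66.4 CPM) and FDPS (303 and 58.2 CPM) fell, and PMVK (42 and 22.2 CPM) was lower by less than 2-fold. The steps committed to sterols followed: FDFT1, squalene synthase (673 and 83.4 CPM), SQLE, squalene epoxidase (214 and 20.5 CPM), LSS (251 and 61.5 CPM), MSMO1 (102 and 20.1 CPM) and DHCR7, given above (20.5-fold, interval 17.7 to 23.8).

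Genes of fatty acid synthesis fell too. ACLY, which supplies acetyl-CoA (492 and 141 CPM), ACACA, the carboxylase (120.0 and 39.6 CPM), SCD, the stearoyl desaturase (3315 and 493 CPM), and FADS1 (544 and 88.8 CPM) fell beside FASN and FADS2, and ELOVL5 was lower (309 and 203 CPM, 1.52-fold, interval 1.46 to 1.59). INSIG1 fell 21.8-fold (interval 20.2 to 23.6), whereas INSIG2, which is known not to depend on SREBP, had 16.9 CPM after PBS and 21.5 CPM after ATO. SREBF2, which encodes SREBP2, had 389 CPM after PBS and 134 CPM after ATO, 2.9-fold (interval 2.76 to 3.04) lower. SREBF1 was lower by less than 2-fold (167 and 93 CPM). TM7SF2, a sterol reductase, was higher (6.49 and 10.6 CPM, 1.64-fold, interval 1.29 to 2.09). In the list of the oxysterol receptor LXR, 4 of 8 measured members rose and 0 fell: NR1H2, a subunit of the receptor (34.2 and 79.2 CPM), and, at low levels, the cholesterol exporters ABCA1 (1.34 and 4.25 CPM) and ABCG1 (0.0560 and 3.52 CPM) and APOE (0.280 and 3.34 CPM). At a mean of at least 5 CPM 1 member rose, and the list's median log2 ratio went from 1.09 to 0.19. Of all genes at 1 to 2 CPM 44.6% rose, and of those at 2 to 5 CPM 39.2%. MYLIP, a ubiquitin ligase and LXR target, had 57.3 CPM after PBS and 65.3 CPM after ATO.

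The sterol response element was searched on both strands as TCACNCCAC or TCACNCGAC in the 250 bases before the start. It was found in 135 of 11414 (1.18%) promoters of measured protein-coding genes and in 5 of 33 (15.2%) of the SREBP list. Over all genes that fell the share was 0.681%, and over all that rose 1.59%. Members with a match included FASN, FDPS, SREBF2 and ACSS2, of which ACSS2 (95.9 and 48.6 CPM) was lower by less than 2-fold. SREBP acts beside NF-Y, which binds CCAAT boxes; that pentamer stood on either strand in 23 of 33 (69.7%) promoters of the list and in 3967 of 11414 (34.8%) of all.

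**Figure D4:**
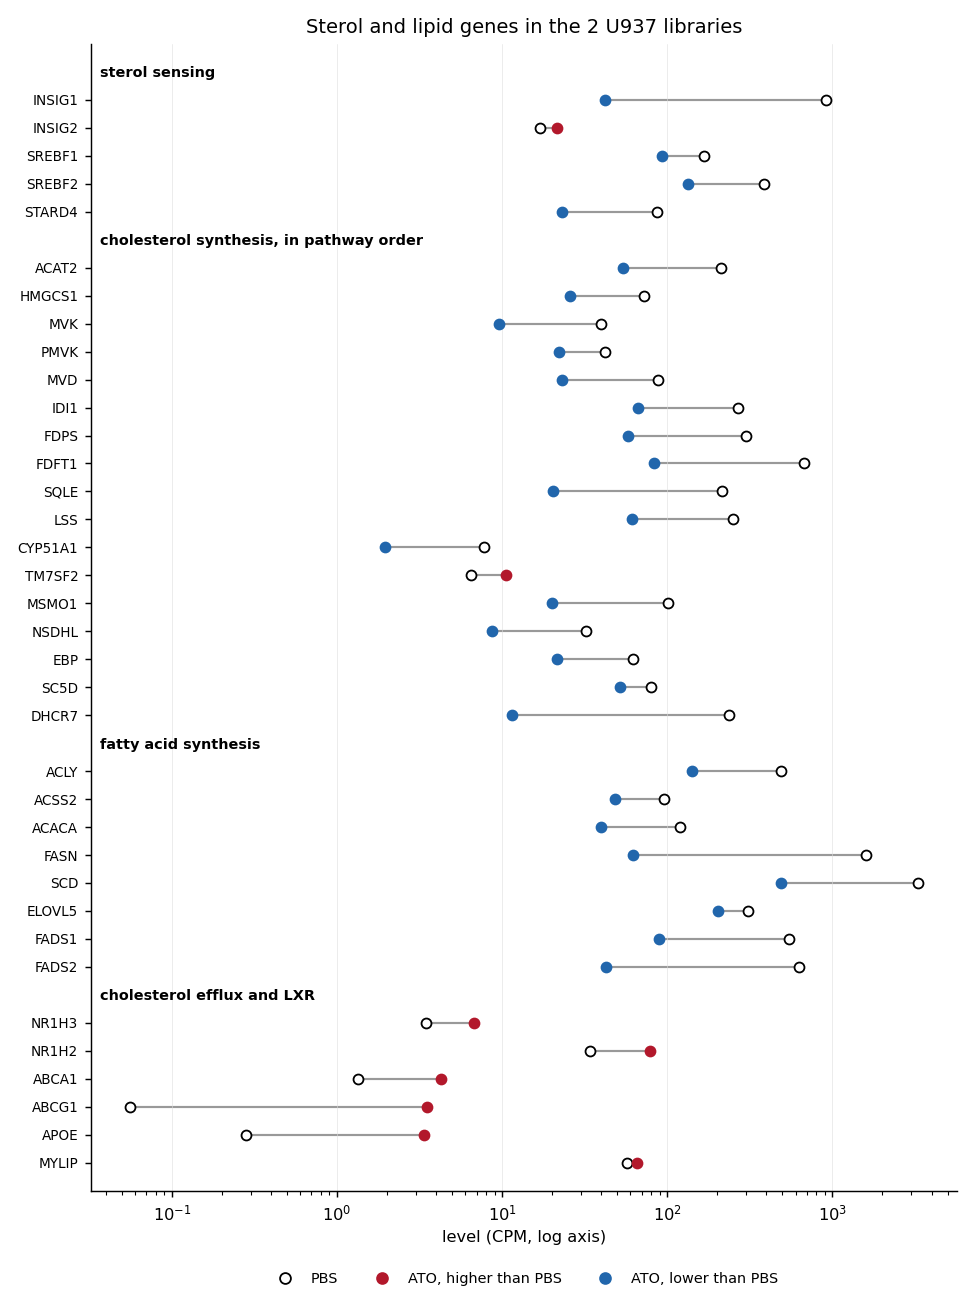
Levels after PBS (open circles) and after ATO (filled circles) are in CPM on a log axis, with 1 library each; cholesterol enzymes stand in pathway order. Every enzyme shown from ACAT2 to DHCR7 except TM7SF2 was lower after ATO, whereas the efflux genes ABCA1, ABCG1 and APOE were higher.

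MYC fell 20-fold (interval 17 to 23.5), beside genes of ribosome assembly that it is known to drive. Of 30 measured members of the nucleolar list, which counts MYC itself, 0 rose and 20 fell, with a median log2 ratio of -1.19. RRS1, of the large subunit (58.4 and 7.05 CPM, 8.28-fold, interval 6.83 to 10.1), and NOP16 (41.6 and 7.41 CPM, 5.61-fold, interval 4.63 to 6.86) fell furthest after MYC. NCL, nucleolin (1528 and 510.1 CPM), NOLC1 (436 and 121 CPM), SRM, spermidine synthase (193 and 36.5 CPM), CAD, of pyrimidine synthesis (354 and 113 CPM), and POLR1A, the large subunit of RNA polymerase I (181 and 61.3 CPM), also fell. NPM1, nucleophosmin, was lower by less than 2-fold (1161 and 747 CPM), and UBTF, the polymerase I activator, was higher (213 and 295 CPM). Cytosolic ribosomal protein genes stayed near their starting levels: of 79, 1 rose and 0 fell, 69 had a ratio above 1, and the median log2 ratio was 0.38 (0.17 with TMM scaling). RPS18 (1091 and 2226 CPM, 2.04-fold) lost its call under TMM scaling, and RPS2, the lowest of them, had 2112 CPM after PBS and 1465 CPM after ATO.

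Many genes of cell division fell. Of 41 measured G2/M genes, 0 rose and 23 fell, and all 41 had a ratio below 1, with a median log2 ratio of -1.14. DLGAP5 (89.6 and 22.1 CPM, 4.06-fold, interval 3.62 to 4.57), KIF20A, a kinesin (60.4 and 15 CPM, 4.04-fold, interval 3.51 to 4.66), and PTTG1, securin (73.2 and 20.2 CPM, 3.63-fold, interval 3.22 to 4.11), fell furthest. The proliferation antigen MKI67 (798 and 242 CPM), the topoisomerase TOP2A (758 and 309 CPM), the cyclins CCNA2 (216 and 87.3 CPM) and CCNB1 (168 and 76 CPM) and the kinase PLK1 (184 and 63.9 CPM) fell. CDK1 (140.4 and 82.5 CPM) and the spindle kinase TTK (59.2 and 52.3 CPM) were lower by less than 2-fold. Of 45 G1/S and replication genes, 0 rose and 15 fell, with a median of -0.77. MCM7, a helicase subunit, had 384 CPM after PBS and 49.3 CPM after ATO, 7.79-fold (interval 7.24 to 8.39) lower, well beyond MCM5 (225 and 128 CPM) and MCM6 (435 and 237 CPM). CCNE1, cyclin E1 (9.96 and 2.31 CPM, 4.31-fold, interval 3.02 to 6.29), and TYMS, thymidylate synthase (102 and 26 CPM, 3.93-fold, interval 3.54 to 4.38), fell. CDC6, the licensing factor (1732 counts after PBS and 2139 counts after ATO), and CCNE2 (25.8 and 32 CPM) were the 2 members with a ratio above 1.

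Promoters of the division genes hold known cell cycle elements. The CHR element TTTGAA was found on either strand in 25 of 41 (61%) promoters of the G2/M list and in 885 of 11414 (7.75%) of all measured protein-coding genes. An E2F site, searched as TTTCCCGC, TTTGGCGC, TTTGCCGC or TTTCGCGC, was found in 19 of 45 (42.2%) promoters of the G1/S list and 539 of 11414 (4.72%) of all. Over all genes that fell, the shares were 9.03% and 5.45%. Replication-dependent histone genes, whose messages mostly lack a poly(A) tail, were mainly below the level for a measured gene: of 47, 11 were measured, and of these 3 rose and 1 fell. Over every listed histone gene with counts, with no level filter, 6 rose and 11 fell, and the median log2 ratio turned from 0.37 to -0.56. H1-4, a linker histone, had 39 counts after PBS and 0 counts after ATO, and H2AC6 (2.97 and 6.26 CPM) rose and lost its call with TMM scaling.

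Myeloid genes changed in both directions. Azurophil granules carry the proteases that immature granulocytes and monocytes make at the promyelocyte stage. Of 15 measured granule genes, 1 rose and 10 fell, with a median log2 ratio of -1.59. RNASE3, PRTN3 and RNASE2 (169 and 19.1 CPM, 8.81-fold, interval 7.84 to 9.92) fell furthest, and RNASE2 and RNASE3 are close paralogues. ELANE, neutrophil elastase (120.2 and 19.7 CPM), AZU1, azurocidin (210.3 and 69.9 CPM), CTSG, cathepsin G (115 and 43.7 CPM), LYZ, lysozyme, and SRGN, the proteoglycan that packs granules (1339 and 439 CPM), fell. CD63, a membrane protein shared with late endosomes, was the single riser (178 and 361 CPM, 2.03-fold, interval 1.94 to 2.12) and lost its call with TMM scaling. CST7 (116 and 108 CPM) did not move by 2-fold.

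Myeloid transcription factors changed in both directions. Of 28 measured factors, 6 rose (21.4%) and 9 fell (32.1%), beside 19.1% and 10.2% of all measured genes. HOXA9 (77.5 and 8.02 CPM, 9.66-fold, interval 8.08 to 11.6), MYB (682 and 117 CPM, 5.81-fold, interval 5.53 to 6.1) and HOXA10 (100.4 and 17.6 CPM, 5.7-fold, interval 5.03 to 6.47), which keep progenitors dividing, fell furthest. MEIS1, the cofactor of HOXA9 (142 and 29.7 CPM), GFI1 (236 and 53 CPM), FLI1 (156 and 57.4 CPM), RUNX1 (277 and 112 CPM) and CEBPA (259.8 and 108 CPM) fell. SPI1, or PU.1, was just inside 2-fold (151 and 76 CPM, lower by 1.99-fold, interval 1.86 to 2.13). ID3 (0.671 and 6.02 CPM, 8.96-fold, interval 4.91 to 17.9) and ID2 (19.2 and 72.1 CPM, 3.75-fold, interval 3.32 to 4.24), which block helix-loop-helix factors, rose. KLF4 (13.3 and 31.5 CPM) and CEBPE (12.6 and 28.5 CPM) rose as well.

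Many genes of mature monocytes and macrophages rose. Of 27 measured members, 16 rose and 4 fell, beside 19.1% and 10.2% of all measured genes, with a median log2 ratio of 1.34. At a mean of at least 5 CPM 13 rose and 4 fell, and of all genes at that level 12.7% rose and 10.7% fell. FPR1, the formyl peptide receptor (0.168 and 15.2 CPM, 90.5-fold, interval 30.6 to 442), and CLEC7A, the beta-glucan receptor dectin-1 (0.280 and 13.6 CPM, 48.7-fold, interval 20.5 to 151), started from 5 counts or fewer. Both passed the level filter only through their ATO level, so the filter fixed their direction. MARCO, a scavenger receptor, had 2.18 CPM after PBS and 44.5 CPM after ATO, 20.4-fold (interval 14.8 to 28.9). C5AR1, the complement receptor (5.99 and 96.3 CPM), GPNMB (244 and 1392 CPM), the calgranulins S100A8 (1.62 and 16.2 CPM) and S100A9 (15.6 and 72.4 CPM), CSF1R, the receptor for macrophage colony-stimulating factor (2.85 and 16.6 CPM), and the integrin chains ITGAM, or CD11b (19.7 and 48.1 CPM), and ITGAX (21.3 and 53.7 CPM) rose. ITGB2, the shared beta chain of those integrins, fell from 1201 to 392 CPM, 3.06-fold (interval 2.98 to 3.15). FCN1, ficolin (38 and 14.5 CPM, 2.62-fold, interval 2.25 to 3.04), and AIF1 (103 and 48.3 CPM, 2.13-fold, interval 1.96 to 2.31) fell, and CD14 was below the level for a measured gene. CD68 (1.4 and 2.25 CPM), CSF3R (180.0 and 194 CPM), TLR2 (11.2 and 12.7 CPM) and TLR4 (95.5 and 92.4 CPM) did not reach 2-fold.

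**Figure D5:**
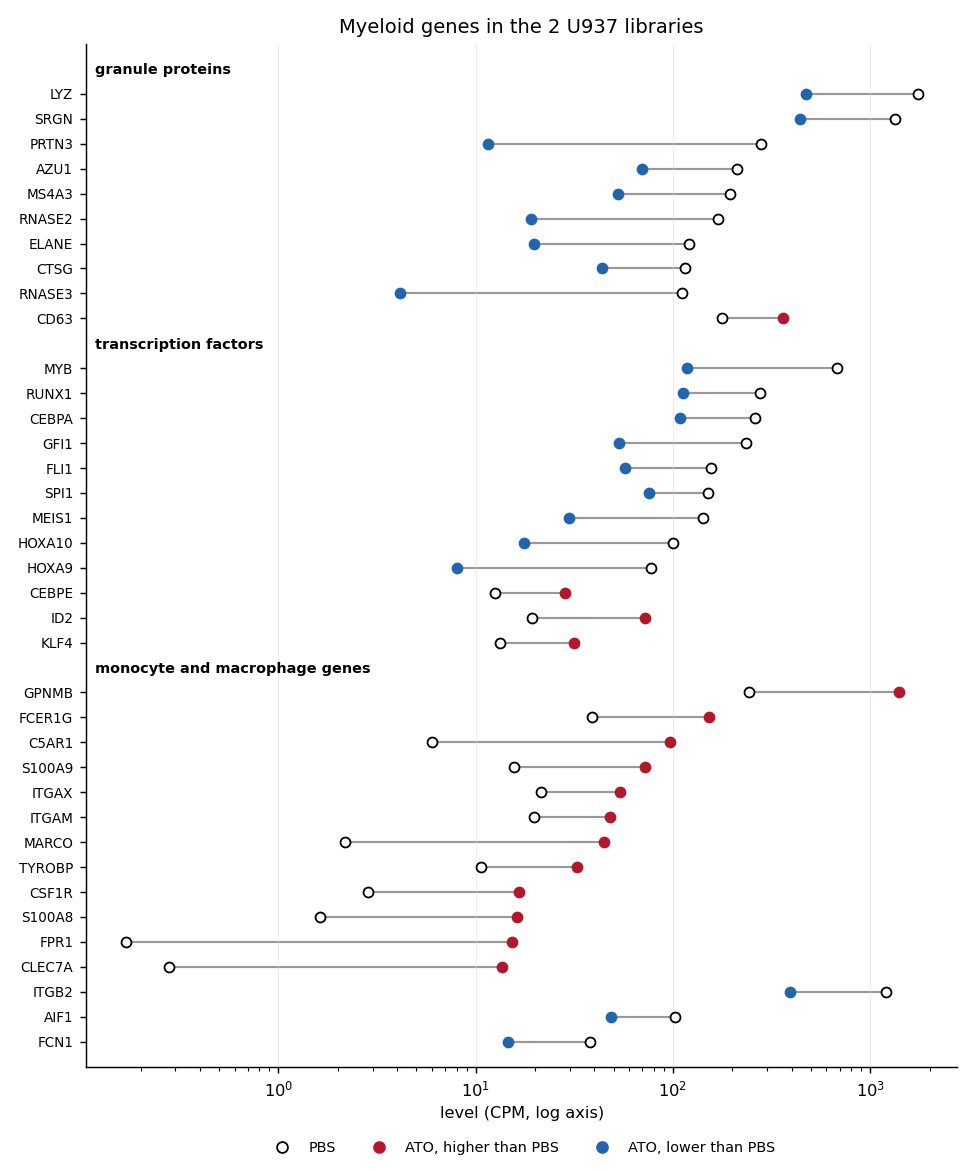
Levels of named myeloid genes after PBS (open circles) and after ATO (filled circles; red higher, blue lower) are in CPM on a log axis, with 1 library each. Granule proteins other than CD63 and the transcription factors from MYB to HOXA9 were lower after ATO, and the monocyte and macrophage genes shown, ITGB2, AIF1 and FCN1 excepted, were higher.

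Surface and adhesion genes were mixed. Of 25 measured receptors, 7 rose (28%) and 6 fell (24%), beside 19.1% and 10.2% of all measured genes. With TMM scaling 5 rose and 7 fell, beside 15.1% and 14.3% of all. The median log2 ratio was 0.17 (-0.04 with TMM scaling). CD86, a costimulator (0.839 and 9.18 CPM, 10.9-fold, interval 6.42 to 20), CCR1, a chemokine receptor (10.6 and 32.5 CPM, 3.05-fold, interval 2.58 to 3.62), and CX3CR1 (5.71 and 13.5 CPM) rose. CLEC12A (29.3 and 5.77 CPM, 5.08-fold, interval 4.07 to 6.39), P2RY2, a nucleotide receptor (41.8 and 9.54 CPM, 4.38-fold, interval 3.68 to 5.24), ANPEP, or CD13 (557 and 195 CPM), and CXCR4 (188 and 66.8 CPM) fell. Among 22 adhesion genes, 8 rose and 3 fell, or 5 and 4 with TMM scaling. ITGAL (76.8 and 240.4 CPM, 3.13-fold, interval 2.94 to 3.33) and ICAM1 (35.2 and 88.8 CPM) were higher, and ITGA4, the alpha-4 chain (449.6 and 73.2 CPM, 6.14-fold, interval 5.78 to 6.53), and SELPLG, the selectin ligand (73.3 and 25.7 CPM), were lower. Of 7 NADPH oxidase genes, 2 rose and 0 fell: NCF1 (4.08 and 16.4 CPM), which has near-identical pseudogene copies, was higher, and the catalytic subunit CYBB was near its starting level (5.6 and 7.23 CPM). Of 11 matrix protease genes, 5 rose and 1 fell (3 rose at a mean of at least 5 CPM), with MMP19 (0.224 and 6.5 CPM), ADAM8 (3.47 and 14.2 CPM) and MMP2 (47.7 and 156 CPM) higher and SERPINB2 lower (77 and 33.9 CPM).

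Immediate early and inflammatory genes rose in part. Of 30 measured AP-1 and immediate early genes, 16 rose and 2 fell, with a median log2 ratio of 1.05. MAFF, a small MAF factor (4.31 and 54.8 CPM, 12.7-fold, interval 10.1 to 16.3), and DUSP5, a phosphatase of ERK (17.7 and 170.2 CPM, 9.59-fold, interval 8.54 to 10.8), rose, and so did JUN (25.6 and 90 CPM) and FOS (6.49 and 15.1 CPM). JUNB (28.6 and 46.8 CPM), JUND (41.7 and 45.2 CPM) and FOSL2 (108 and 132 CPM) did not reach 2-fold. DUSP6, another ERK phosphatase, fell (21.1 and 7.29 CPM, 2.9-fold, interval 2.36 to 3.59), and MYC is on this list too. Of 24 NF-kB and cytokine genes, 10 rose and 3 fell, and at a mean of at least 5 CPM 5 rose. CCL3 (0.336 and 6.5 CPM, 19.4-fold, interval 8.61 to 54) and its near-identical copy CCL3L3 (0.336 and 6.62 CPM), CXCL16 (2.74 and 23.5 CPM, 8.58-fold, interval 6.36 to 11.8), IL1B (0.392 and 4.62 CPM) and the antagonist IL1RN (7.89 and 26.2 CPM) rose. NLRP3, the inflammasome sensor (25.3 and 8.02 CPM, 3.15-fold, interval 2.59 to 3.86), CCL5 (48.1 and 18.6 CPM) and NFKB1 (78 and 33.1 CPM) fell, and the NF-kB feedback genes NFKBIA (19.4 and 29.2 CPM) and TNFAIP3 (19.5 and 21.5 CPM) did not reach 2-fold.

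Interferon-stimulated genes were split by member. Of 35, 15 rose and 2 fell, with a median log2 ratio of 0.94, and at a mean of at least 5 CPM 9 rose. IFIT2 (1.34 and 12 CPM, 8.96-fold, interval 5.85 to 14.3), OAS1 (3.13 and 24.9 CPM, 7.93-fold, interval 5.99 to 10.7) and SAMD9L (2.52 and 19.5 CPM, 7.75-fold, interval 5.66 to 10.8) rose most among those at 5 CPM or more. STAT2 (62.7 and 286 CPM), IRF9 (3.8 and 14.8 CPM) and IRF7 (4.7 and 16.5 CPM), which transmit the signal, rose. ISG15 (7.67 and 6.75 CPM), MX1 (3.47 and 6.75 CPM), MX2 (162 and 130.2 CPM), IFI6 (21.5 and 20.8 CPM) and BST2 (71.7 and 73.8 CPM) did not, and IFITM2 fell from 125 to 23.6 CPM, 5.3-fold (interval 4.75 to 5.91). An interferon-stimulated response element, searched on both strands as a pair of GAAA runs with 2 free bases between them, was found in 16 of 35 (45.7%) promoters of the list and in 304 of 11414 (2.66%) of all. In class I antigen presentation, with a median log2 ratio of -0.32, of 17 measured genes, 0 rose and 4 fell, among them HLA-B (190.3 and 65.1 CPM, 2.92-fold, interval 2.73 to 3.13), TAP2, a peptide transporter (80.8 and 31.2 CPM), and PSMB8, an immunoproteasome subunit (121 and 47.2 CPM), while B2M stayed within 2-fold (1327 and 1297 CPM). Of 9 class II genes, 1 rose and 2 fell, and CIITA, their activator, fell (9.96 and 4.13 CPM, 2.41-fold, interval 1.81 to 3.24).

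Many genes of the lysosome and of autophagy rose. Of 29 measured members, 16 rose (11 with TMM scaling) and 0 fell. A ratio above 1 was found for 27, with a median log2 ratio of 1.07 (0.86 with TMM scaling). GABARAPL1, which coats autophagosomes, had 5.54 CPM after PBS and 48.4 CPM after ATO, 8.74-fold (interval 7.09 to 10.9). MCOLN1, the lysosomal calcium channel, had 13.6 CPM after PBS and 87.3 CPM after ATO, 6.42-fold (interval 5.6 to 7.38), and SQSTM1, the cargo receptor p62, 93 CPM after PBS and 557 CPM after ATO, 5.98-fold (interval 5.68 to 6.31). MAP1LC3B (50 and 263 CPM), CTSD, cathepsin D (381 and 905 CPM), NPC1, the lysosomal cholesterol exporter (97.2 and 253 CPM), the proton pump subunits ATP6V1H (51.7 and 186 CPM) and ATP6V0D1 (54.1 and 148 CPM) and TFEB, a factor that drives such genes (24.8 and 53.8 CPM), rose. LAMP2 (397 and 478 CPM), TAX1BP1 (430.0 and 394 CPM) and ATG7 (77.7 and 69.2 CPM) did not. Proteasome genes were higher by less than 2-fold: of 40, 33 had a ratio above 1, 1 rose and 2 fell, and the median was 0.44 (0.23 with TMM scaling). The 2 that fell were PSMB8 and PSME3 (205 and 93 CPM), an alternative cap. PSMD6, the riser (109.9 and 226 CPM), lost its call with TMM scaling.

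In most lists of energy metabolism few genes passed 2-fold, while the respiratory lists were lower by less than 2-fold at most members. Of 25 glycolysis genes, 4 rose (16%) and 1 fell (4%), beside 19.1% and 10.2% of all measured genes, with a median log2 ratio of -0.09. SLC2A3, a glucose importer (29.7 and 105 CPM, 3.55-fold, interval 3.22 to 3.92), PFKM (3.36 and 12 CPM, 3.57-fold, interval 2.66 to 4.84) and HK2, a hexokinase (137 and 293 CPM, 2.14-fold, interval 2.04 to 2.25, under 2-fold with TMM scaling), rose. LDHA, lactate dehydrogenase, fell (668 and 298 CPM, 2.25-fold, interval 2.17 to 2.32), and TPI1 (554 and 341 CPM), PGK1 (551 and 397 CPM) and PKM (2202 and 1648 CPM) were lower by less than 2-fold. In the hypoxia list 8 of 18 rose and 3 fell. EPAS1, or HIF-2alpha (24.5 and 149.7 CPM, 6.12-fold, interval 5.53 to 6.79), NDRG1 (97.9 and 409.7 CPM, 4.19-fold, interval 3.97 to 4.42) and VEGFA, the angiogenic factor (108 and 433 CPM, 4.0-fold, interval 3.81 to 4.21), rose. The hypoxia targets ERO1A (253 and 85.1 CPM, 2.98-fold, interval 2.8 to 3.16), HILPDA (13.6 and 5.35 CPM) and CITED2 (159 and 73 CPM) fell. Of 13 mitochondrially encoded respiratory genes, 0 rose and 2 fell and 12 had a ratio below 1. Their median log2 ratio was -0.49 (-0.70 with TMM scaling). MT-ATP8 (431 and 152 CPM) and MT-ATP6 (2183 and 957 CPM), which share a transcript, were lowest. MT-CO1, the gene with most reads in both libraries, had 14568 CPM after PBS and 13637 CPM after ATO. Of 76 nuclear respiratory genes, 1 rose and 2 fell, and the median log2 ratio was -0.14 (-0.35 with TMM scaling). A ratio below 1 was found for 50 of these 76, and for 5910 of all 13722 measured genes. NDUFB1, the riser (22.7 and 51.2 CPM), lost its call with TMM scaling.

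PML bodies are a known target of arsenic, which modifies and degrades the PML protein. PML messenger RNA had 40.9 CPM after PBS and 58.6 CPM after ATO, under 2-fold. Of 24 measured PML and SUMO genes, 3 rose (12.5%) and 0 fell, beside 19.1% and 10.2% of all measured genes. Their median log2 ratio was 0.08 (-0.13 with TMM scaling). SP140, a relative of the body component SP100, rose from 7 counts (0.392 and 15.8 CPM, 40.3-fold, interval 19.3 to 101). SP110 (18.1 and 41.6 CPM) and the SUMO ligase PIAS2 (19 and 38.9 CPM) rose and lost their calls with TMM scaling. Of 14 genes of arsenic transport and methylation, 3 rose (21.4%) and 2 fell (14.3%), near the 19.1% and 10.2% of all measured genes. At a mean of at least 5 CPM 1 rose. The entry channel AQP9 rose from 4 counts (0.224 and 2.55 CPM). AQP9 passed the level filter only through its ATO level, so the filter fixed its direction, and of all genes at 1 to 2 CPM 44.6% rose. ABCB6, a transporter of porphyrins and arsenic (1.17 and 7.35 CPM, 6.26-fold, interval 3.92 to 10.5), rose, and the exporter ABCC1 did not reach 2-fold (74.2 and 103 CPM). N6AMT1, a methyltransferase that can act on arsenic, fell from 14.5 to 3.04 CPM, 4.79-fold (interval 3.53 to 6.62), and ABCC4 was 2.01-fold lower (83.5 and 41.6 CPM). AS3MT, the main arsenic methyltransferase, was below the level for a measured gene.

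Markers of other cell types were mostly low after PBS, and many of those that were measured rose. Several, among them ESRP1, CLDN7, COL6A3, LAT and TRAC, passed the level filter only through their ATO level, so the filter fixed their direction. Of all genes at 1 to 2 CPM 44.6% rose, and of those at 2 to 5 CPM 39.2%. Of 12 adipocyte markers, 3 were measured and all of these rose: PPARG, a nuclear receptor (38.7 and 84.2 CPM, under 2-fold with TMM scaling), CFD, complement factor D (8.11 and 69.8 CPM), and PLIN4, a lipid droplet protein (1.17 and 12.2 CPM). The whole list summed to 48.3 CPM after PBS and 169 CPM after ATO, while the defining genes ADIPOQ and PLIN1 had 0 counts in both libraries. Of 13 epithelial markers, both measured ones rose, ESRP1 (0.168 and 31.7 CPM) and CLDN7, a tight junction protein (0.112 and 3.71 CPM). That list summed to 3.36 CPM after PBS and 39.6 CPM after ATO, with EPCAM at 0 and 1 counts. Of 11 fibroblast markers, 4 were measured and 3 rose: COL1A1 (2.41 and 24.7 CPM), COL6A3 (0.112 and 18.3 CPM) and PDGFRB, a growth factor receptor (0.783 and 8.57 CPM). The list summed to 10.3 CPM after PBS and 58 CPM after ATO, and COL1A2, the partner chain of COL1A1, had 0 counts in both libraries.

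Of 15 T cell markers, 2 were measured and both rose, the adaptor LAT (0.504 and 9.42 CPM) and TRAC, the constant chain of the T cell receptor (0.336 and 3.1 CPM). The list summed to 1.68 CPM after PBS and 15.6 CPM after ATO, and 6 of its genes, CD3D, CD3G, CD8A, CD8B, LCK and CD28, had 0 counts in both. Of 12 B cell markers, 7 were measured and 3 rose: CD22 (4.59 and 26.9 CPM), BLNK (0.168 and 2.61 CPM) and FCRLA (0.0560 and 3.71 CPM). PAX5, the B lineage factor, had 18.6 CPM after PBS and 12.9 CPM after ATO, MS4A1 had 0 counts in both, and the list summed to 46 CPM after PBS and 78 CPM after ATO. Of 17 erythroid and megakaryocyte markers, 2 were measured and 0 rose and 0 fell, with a sum of 7.44 CPM after PBS and 9.42 CPM after ATO and the haemoglobin genes HBA1, HBA2 and HBB at 0. The part of other cell types in the rises was not tested.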

How the data were processed

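For both U937 libraries the authors deposited 1 table with unnormalized read counts and FPKM values for each gene. From the values, each FPKM is the count divided by exonic size and library total. FPKM was used only to check the library totals. The submitters' processing notes name FastQC 0.10.1, cutadapt 1.9.1 and HISAT2 2.0.1, and only the mouse build GRCm38 (mm10); gene coordinates in the human table equal those of GENCODE 44 on GRCh38 for 98.1% of genes. The counting program and its use of strand are not given in the sources used here. Per the labels' protocols, TRIzol was used for RNA extraction and a SMARTer kit for the libraries. That text also holds a passage on adipogenic culture that does not describe these cells.

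Counts were divided by the library total, 17872972 for PBS and 16454534 for ATO. The ratio of CPM, with no pseudocount, was taken with an exact conditional (Clopper-Pearson) 95% interval. Such intervals cover the counting error of reads only. Reads lacking molecular identifiers need not come from separate molecules, so the intervals may be too narrow even for counting error. Genes with 0 counts in a library were set against a floor of 3 counts (0.168 CPM after PBS, 0.182 after ATO), also in list medians. The method was run on simulated counts drawn with counting error only, which is what the interval assumes. That run therefore says nothing about variation between cultures. Promoters were taken as the 250 bases before the start of GENCODE canonical transcripts, for 11414 measured protein-coding genes. Gene symbols come from the table, and 20417 of its 61806 genes have none. Tools were Python 3.11.15, scipy 1.17.1, edgeR 4.0.16 and DESeq2 1.42.0, the last 2 for scaling factors only.

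The 42 gene lists, the comparison and the rules were chosen with earlier results of these data known. Named genes are the 15 largest rises and falls at 10 CPM or more in either library; the 3 largest ratios each way per list at 5 CPM or more, or every member of lists with under 8 measured; the 5 genes with most reads; and CDKN1A, MDM2, MT1X, MT2A and HMOX1. Some genes and sequences that the rules name are not reported here. Alternatives were TMM and median-of-ratios scaling, totals without mitochondrial genes, 1 CPM added, other level filters, a stricter call and protein-coding genes only.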

Additional observations from a re-analysis of the deposited data

How the results depend on the processing

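The number of genes that rose depended on the level filter: 2625 with a mean of at least 1 CPM, 1350 at 5 CPM, 998 at 10 CPM (a setting chosen after seeing the data) and 6021 with no filter. The number that fell was 1396, 2359 with no filter and 894 where the whole counting interval had to lie past 2-fold, which is a stricter call by construction. At 5 CPM rises made up 54.2% of changed genes, and under median-of-ratios scaling 53.8%. The number of list members past 2-fold was 356 and ranged from 307 to 433 over the alternatives. TMM scaling shifted the ratio of 147 named genes beyond their counting interval. TMM scaling, median-of-ratios scaling and totals without mitochondrial genes lower every log2 ratio by 0.21 or less. Adding 1 CPM keeps the order of the levels. A gene past 2-fold therefore could not change sign under these settings, and the absence of such changes carries no information. TMM scaling also added falls: MDM4 and SPI1 passed 2-fold, the G1/S falls went from 15 to 22, those of the myeloid factors from 9 to 13, and those of nuclear respiratory genes from 2 to 4, while among p53 regulators 0 rose and 2 fell. Of genes named by rule, 11 lost the call under TMM scaling and 4 with 1 CPM added (ABCC4, H2AC6, PIAS2 and PPP1R13B). Genes named for their role were not in that count, so a rise given without a remark on TMM scaling need not hold under it. With TMM scaling, list rises went from 16 to 11 for the lysosome, 16 to 12 for AP-1 and 15 to 13 for ATF4. The medians of the endoplasmic reticulum, PML and surface receptor lists turned negative under TMM and median-of-ratios scaling, that of the surface receptors also at 5 CPM, and that of the histones with no filter. No paired analysis was possible because each treatment has 1 library. Ratios of genes near 1 CPM rest on few counts and carry wide intervals.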

Other observations

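Some genes outside the lists also changed; they were chosen after their values were seen. PLIN2, which coats lipid droplets, had 49.5 CPM after PBS and 629 CPM after ATO, 12.7-fold (interval 11.9 to 13.6) higher, and POR, the electron donor of cytochrome P450 enzymes, had 35.5 CPM after PBS and 296 CPM after ATO, 8.33-fold (interval 7.67 to 9.06). ATF5, a stress transcription factor related to ATF4, rose (48.3 and 419 CPM), as did TNFRSF14, a receptor of the tumour necrosis factor family (8.28 and 393 CPM), and C3, the central complement protein (8.95 and 74.4 CPM). Among long non-coding RNAs, LUCAT1 had 0.280 CPM after PBS and 21.1 CPM after ATO and MIR22HG, the host transcript of a microRNA, had 0.560 CPM after PBS and 18 CPM after ATO. BMI1, a Polycomb protein that maintains stem cells, fell from 529 to 64 CPM, 8.26-fold (interval 7.75 to 8.82). GLO1, the glyoxalase that detoxifies methylglyoxal with glutathione, fell from 2421 to 593 CPM, 4.08-fold (interval 3.99 to 4.17). HOXA13 (97.1 and 16.7 CPM) and FUT4, the fucosyltransferase that makes the myeloid antigen CD15 (160.4 and 20.9 CPM), fell as well.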
